A study of Arabidopsis thaliana with 10 samples.

Results

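GH9 endoglucanases and TRICHOME BIREFRINGENCE-LIKE (TBL) genes were described in roots of Arabidopsis thaliana at full and at low sulfate. Probe sets with a single annotated gene were taken where the gene's symbol was GH9 with a letter and a number or TBL with a number. This gave 37 of the 22197 probe sets tested, 15 of GH9 and 22 of TBL. The 7 genes at the centre of the account are those that moved in the wild type at low sulfate: GH9B8, GH9B13 and GH9C1, and TBL19, TBL21, TBL36 and TBL38. That choice used the difference between wild-type roots at low and at full sulfate, so this difference is given below as a description without a test.

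Endoglucanases of the GH9 family cut beta-1,4-glucan chains. Class A includes members that are anchored in membranes and take part in cellulose synthesis, which need not hold for every class A gene. Class B members are secreted, and class C members are secreted and carry a carbohydrate-binding module at their C terminus. Many TBL proteins act in the Golgi as transferases that add acetyl groups to wall polysaccharides such as xylan, mannan and xyloglucan, but the family is not uniform, and TBL38 has been described as a wall enzyme that removes acetyl groups from pectin. The labels say nothing of the substrates of the other TBL members described here.

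The wild type was Columbia (Col). The sdi1sdi2 double knockout (KO) was represented by lines 1 and 4, and plants overexpressing SDI1 (OX) by lines 6 and 12. SDI1 and SDI2 are sulfur-deficiency induced genes, and SDI1 is known to repress aliphatic glucosinolate synthesis. Roots were harvested after 10 days on agar medium with sucrose, with sulfate at 1500 µM (+S) or 15 µM (-S). Col and KO were grown at both levels and OX at +S, with 2 ATH1 arrays in each of the 5 groups. The arrays of a KO or OX group are different plant lines. Neither the insertion sites nor the promoter of the SDI1 transgene is stated by the labels. No label ties the 2 Col arrays of a group to separate cultures, so the gap between them may be technical. The p-values rest on a limma spread per probe set, pooled over all 5 groups. That spread mixes gaps between Col arrays with differences between KO lines and between OX lines.

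Values are log2 expression values per probe set, and levels are compared only within a gene. Group values are mean ± SD (n = 2), differences are log2 differences ± SE of a limma fit over all 10 arrays, and a difference is called at a limma adjusted p under 0.05 over all 22197 probe sets. Arrays of a group correlated at 0.990 to 0.996. AT1G04770, the locus taken here as SDI2, read 5.47 and 5.65 on the Col -S arrays and -1.52 and 0.31 on the KO -S arrays, and no probe set was listed for SDI1. The root hair expansins EXPA7 and EXPA18 lay above the array background on all 10 arrays, and so did the leaf-type genes RCA and LHCB4.1. In whole roots, fewer cells of a type and less RNA per cell cannot be told apart. The number of arrays limits the precision.

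Of the GH9 members, GH9B8, a class B enzyme, had the widest difference between sulfate levels in Col among all 37 probe sets. It read 2.34 and 2.14 in Col +S and 3.46 and 3.15 in Col -S. In KO it read 2.16 and 2.13 at +S and 2.34 and 2.63 at -S, for lines 1 and 4, and in OX lines 6 and 12 it read 1.82 and 2.16. Both Col -S arrays stood above all other arrays, while OX, KO +S, Col +S and KO -S, from the lowest mean to the highest, each overlapped the next. The Col difference was 1.06 ± 0.16, or 2.09-fold.

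GH9C1, the class C member, read 2.44 and 2.55 in Col +S and 3.11 and 3.37 in Col -S. It read 2.56 and 2.46 in KO +S, 2.76 and 2.95 in KO -S, and 2.82 and 2.97 in OX. Col -S was again the highest group, but OX overlapped KO -S and stood apart from both +S groups below it. The Col difference was 0.75 ± 0.13.

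GH9B13, the other class B member, ran the opposite way. It read 4.42 and 4.47 in Col +S and 3.65 and 3.84 in Col -S, a difference of -0.70 ± 0.12. It read 4.09 and 3.99 in KO +S, 3.27 and 3.22 in KO -S, and 3.72 and 3.99 in OX. Col +S was the highest group and KO -S the lowest, and neither overlapped any other group, while OX overlapped Col -S.

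Of the TBL members, TBL38 read 3.68 and 3.80 in Col +S and 4.19 and 4.20 in Col -S. It read 3.69 and 3.69 in KO +S, 3.91 and 3.89 in KO -S, and 3.63 and 3.70 in OX. The 3 groups at +S overlapped, KO -S stood apart above them, and Col -S stood apart above KO -S. The Col difference was 0.45 ± 0.09.

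TBL21 read 0.83 and 0.96 in Col +S, and 1.25 and 1.68 in Col -S. It read 0.99 and 0.94 in KO +S, 1.26 and 1.26 in KO -S, and 0.85 and 0.89 in OX. Both -S groups lay above all +S arrays and overlapped each other. The Col difference of 0.57 ± 0.14 was 0.35 without the second Col -S array and 0.79 without the first.

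TBL19 and TBL21 lie next to each other on chromosome 5 in the RefSeq annotation of assembly TAIR10.1. TBL19 was the dimmest member and lay above the array background on 3 of 10 arrays, whereas the other 6 members did so on all 10. It read -0.30 and -0.48 in Col +S, 0.04 and 0.08 in Col -S, -0.64 and -0.53 in KO +S, -0.19 and -0.07 in KO -S, and -0.39 and -0.59 in OX. The arrays at -S lay above those at +S, with background levels between -0.58 and 0.37. The background was highest on the second Col -S array. The Col difference was 0.45 ± 0.11, and a difference this close to the background is approximate.

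TBL36 was the TBL member that was lower at -S. It read 5.19 and 5.28 in Col +S and 4.57 and 4.65 in Col -S, a difference of -0.63 ± 0.11. It read 5.23 and 5.14 in KO +S, 4.29 and 4.44 in KO -S, and 4.58 and 4.79 in OX. OX overlapped Col -S and stood apart from both genotypes at +S, which overlapped each other.

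**Figure D1:**
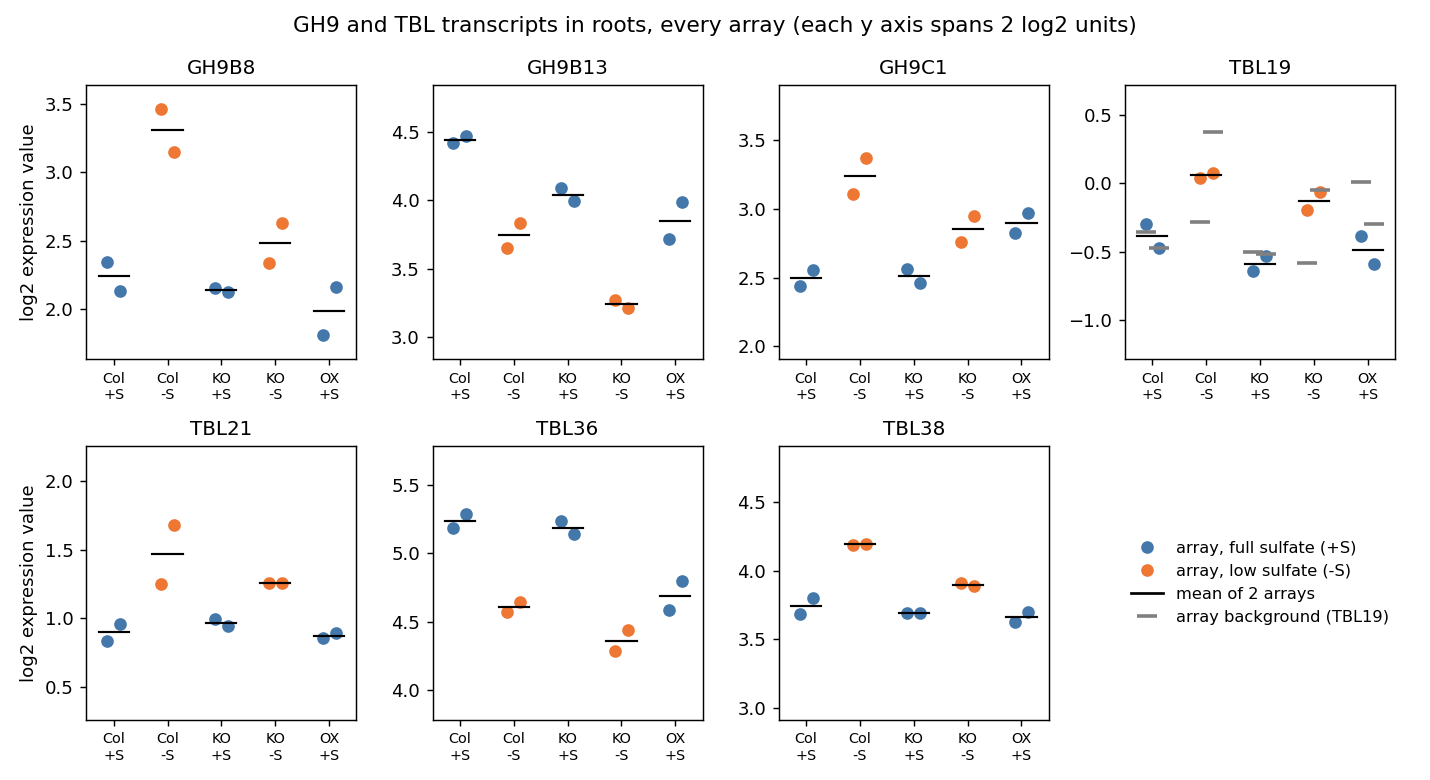
Log2 expression value (y axis, 2 units in every panel) of the 7 genes on every array, by group (x axis). Points are arrays, black lines are the means of 2 arrays, and grey ticks in the TBL19 panel are the array backgrounds. GH9B8, GH9C1, TBL38 and TBL21 have their highest mean in Col -S, and GH9B13 and TBL36 their lowest mean in KO -S.

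The threshold that chose the members fell between close values. TBL19 (0.45 ± 0.11) lay just inside it and TBL37 (0.45 ± 0.13), GH9B7 (0.30 ± 0.09) and TBL30 (0.29 ± 0.09) just outside. GH9B6 (0.66 ± 0.17) also lay inside, but it was under the background on every array and is not among the 7. Across all tested probe sets 9.44% were called in Col, and by choice all 7 members were. Over all probe sets the number called in Col fell from 2095 to 1465 with the replicate block named below. The count of 8 called GH9 and TBL genes depended on the arrays. It was 3 without the first and 2 without the second Col +S array, 4 without the second Col -S array, 5 without any 1 of the 4 KO arrays, and 5 with a replicate block for Col number and KO line.

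The response in KO compares KO arrays only, but the SE in the fit over all 10 arrays is estimated in part from the Col arrays that chose the members. With only the 4 KO arrays fitted, GH9B13 and TBL36 were called (limma adjusted p = 0.015 and 0.018) and TBL19 was not (limma adjusted p = 0.079). In the fit over all arrays, TBL36 fell by 0.82 ± 0.11 (limma adjusted p = 0.0026), GH9B13 fell by 0.80 ± 0.12 (limma adjusted p = 0.0044) and TBL19 rose (limma adjusted p = 0.049). Both KO +S arrays of TBL19 and its KO -S array of line 4 lay under the background, so no fold is given for its rise. The background of calls was 6.42% of all tested probe sets, 2.92% higher and 3.5% lower. None of the 30 other GH9 and TBL probe sets was called by limma, and 2 of them had an unadjusted p under 0.05.

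The other 4 members were not called in KO. GH9C1 differed by 0.35 ± 0.13 (limma adjusted p = 0.17), GH9B8 by 0.34 ± 0.16 (limma adjusted p = 0.31), TBL21 by 0.29 ± 0.14 (limma adjusted p = 0.31) and TBL38 by 0.21 ± 0.09 (limma adjusted p = 0.26). The GH9B8 difference was 0.20 without the KO -S array of line 4 and 0.49 without that of line 1. The 95% interval ran from -0.03 to 0.71 for GH9B8 and from 0.06 to 0.63 for GH9C1. All 7 genes had KO arrays at -S and +S that did not overlap, against 51.9% of all tested probe sets, in either direction. Each of the 7 differed in the direction it had in Col, for which no share over all probe sets is given.

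TBL19's call in KO was lost in each of the 8 fits that left out a Col or KO array, with adjusted p from 0.063 to 0.31, and with the replicate block (adjusted p = 0.10). GH9B13's call was lost without the KO +S array of line 1 (adjusted p = 0.054), where the count of called genes was 1. TBL36 was called in all 10 of these fits, with adjusted p at or below 0.036.

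Set side by side, the KO difference was 32.2% of the Col difference for GH9B8, 46.3% for GH9C1, 46.4% for TBL38 and 50.9% for TBL21. It was 103% for TBL19, 114% for GH9B13 and 132% for TBL36. These shares rest on few arrays. That of TBL21 was 82.0% without the second Col -S array, where its difference of responses was -0.064, and that of GH9B8 was 18.5% without the KO -S array of line 4 and 45.8% without that of line 1. The difference of these responses, KO minus Col, was -0.72 ± 0.23 for GH9B8, -0.40 ± 0.18 for GH9C1, -0.28 ± 0.19 for TBL21 and -0.24 ± 0.13 for TBL38. It was 0.01 ± 0.16 for TBL19, -0.10 ± 0.17 for GH9B13 and -0.20 ± 0.16 for TBL36. These values hold the Col difference that chose the members and are therefore not tested here. Over all 37 probe sets limma called 0, with 2 at an unadjusted p under 0.05 and 0.748% called among all tested.

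**Figure D2:**
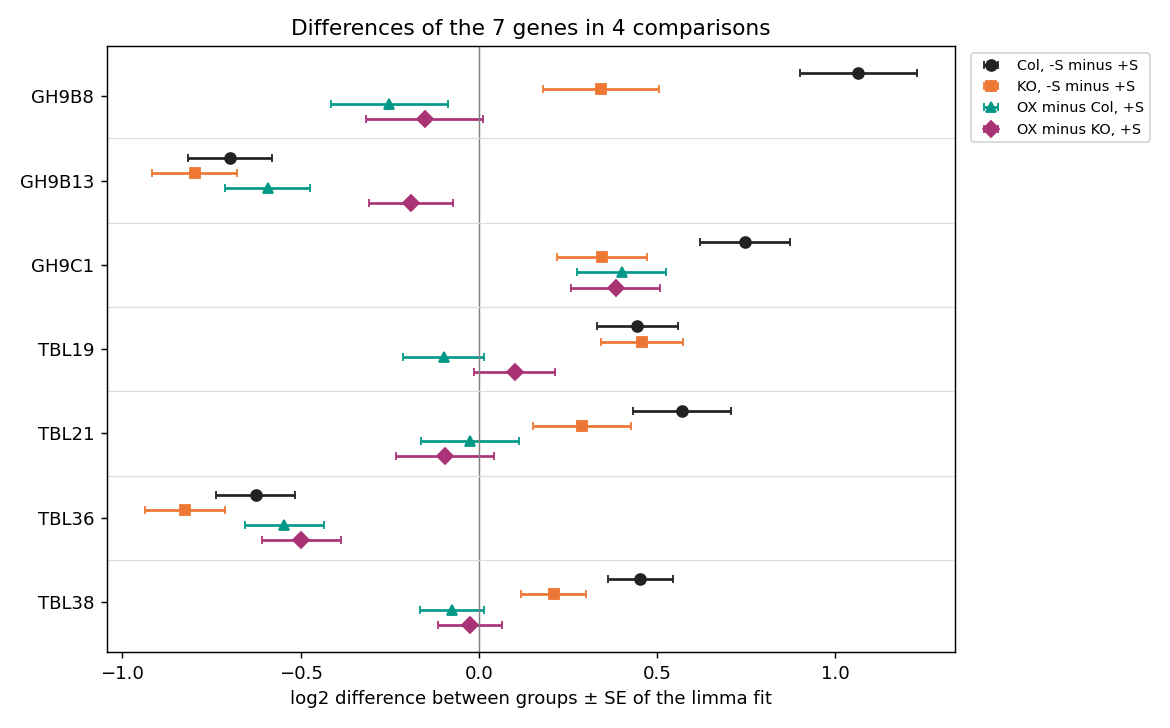
Log2 difference (x axis) ± SE of the limma fit for each of the 7 genes (y axis) in 4 comparisons. GH9B13 and TBL36 lie left of 0 in all 4, and GH9C1 lies right of 0 in all 4, while GH9B8 lies right of 0 in both sulfate responses and left of 0 in both OX comparisons.

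Comparisons of KO or OX with Col share a Col group with the difference that chose the members. Their p-values, directions and counts without overlap are therefore not independent of that choice. At -S, all 7 members had lower means in KO than in Col, as did 12767 of the 22197 tested probe sets. In 6 of the 7, all but TBL21, the arrays did not overlap, against 25.4% of all tested probe sets lower without overlap. For the 5 members chosen as higher in Col -S, GH9B8 among them, the choice itself favours a lower KO -S. For GH9B13 and TBL36 it favours a higher KO -S. GH9B8 was lower by 0.82 ± 0.16, which was called (limma adjusted p = 0.034), against a background of 2.85% of all tested probe sets called and 1.12% called lower. Its call was lost in each of the 8 fits without a Col or KO array (adjusted p from 0.055 to 0.19) and with the replicate block (adjusted p = 0.061). GH9B13 stood at -0.50 ± 0.12 (limma adjusted p = 0.066). It was called where probe sets under the background were left out (adjusted p = 0.028), a fit that called 1025 of 15079 probe sets. GH9C1 stood at -0.38 ± 0.13, TBL38 at -0.29 ± 0.09, TBL36 at -0.25 ± 0.11, TBL21 at -0.21 ± 0.14 and TBL19 at -0.19 ± 0.11, none of them called. The TBL21 difference was 0.0070 without the second Col -S array.

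At +S, KO and Col differed by 0.10 or less in GH9B8 (-0.10 ± 0.16), GH9C1 (0.02 ± 0.13), TBL21 (0.07 ± 0.14), TBL36 (-0.05 ± 0.11) and TBL38 (-0.05 ± 0.09). GH9B13 stood at -0.40 ± 0.12 (limma adjusted p = 0.57) and TBL19 at -0.20 ± 0.11. The limma fit called 0 of the 37 probe sets, with 1 at an unadjusted p under 0.05, and 0.0225% of all tested. GH9B13 and TBL19 were the 2 members whose arrays did not overlap, against 41.8% of all tested probe sets.

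In OX at +S, the 2 genes that were lower in Col at low sulfate were lower than in Col +S on both arrays. The choice of these 2 used the same Col +S arrays and so favours a lower OX value, also in the alternative fits below. For GH9C1 the choice favours a higher OX value. GH9B13 stood at -0.59 ± 0.12 (limma adjusted p = 0.078) and TBL36 at -0.55 ± 0.11 (limma adjusted p = 0.082). Neither was called, but both were where probe sets under the background were left out (adjusted p = 0.027 and 0.029) and with an intensity trend and robust variances (adjusted p = 0.027 and 0.029). GH9C1 was higher on both OX arrays, at 0.40 ± 0.13 (limma adjusted p = 0.30). GH9B8 stood at -0.25 ± 0.16, TBL19 at -0.10 ± 0.11, TBL38 at -0.08 ± 0.09 and TBL21 at -0.02 ± 0.14. Of the 37 probe sets limma called 0, with 5 at an unadjusted p under 0.05, of which 3 were members, and 0.649% of all tested were called. The arrays of 3 members did not overlap between OX and Col, against 37.7% of all tested probe sets.

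OX against KO at +S compares no Col array, although its SE too comes from the fit over all 10 arrays. With only these 4 arrays fitted, limma also called none of the 37 probe sets. TBL36 was lower in OX by 0.50 ± 0.11, with a 95% interval from -0.75 to -0.25 (limma adjusted p = 0.18), and GH9C1 was higher by 0.38 ± 0.13, with an interval from 0.10 to 0.67 (limma adjusted p = 0.41). GH9B13 stood at -0.19 ± 0.12, GH9B8 at -0.15 ± 0.16, TBL21 at -0.09 ± 0.14 and TBL38 at -0.02 ± 0.09, and TBL19 lay under the background in both groups. The GH9B13 difference was -0.056 without the OX array of line 6 and -0.33 without that of line 12. No member was called by limma, with 2 at an unadjusted p under 0.05, against 0.383% of all tested probe sets called. The arrays of 4 members did not overlap, against 46.2% of all tested probe sets.

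The 30 GH9 and TBL genes outside the members gave a median of 0.19 in Col at low sulfate, against 0.02 over all probe sets. Of the 30, 26 were above 0, against 52.9% of all tested probe sets. The choice of the members used this same Col difference, and the 30 are what it left. In KO their median was 0.03, against 0.00028 over all probe sets. GH9A4, a class A gene, stood at 0.63 ± 0.37 in Col and at 0.08 ± 0.37 in KO. On the second Col -S array it read 0.99, and on the other 9 it lay between -0.49 and 0.27. GH9B7, a class B gene, stood at 0.30 ± 0.09 in Col, and GH9C2, the class C gene next in name to GH9C1, at 0.17 ± 0.14. TBL45 stood at 0.22 ± 0.12 in Col and -0.32 ± 0.12 in KO. Of the 37 probe sets, 23 were above the background on all arrays and 10 on none, and these 10 are part of the medians above.

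**Figure D3:**
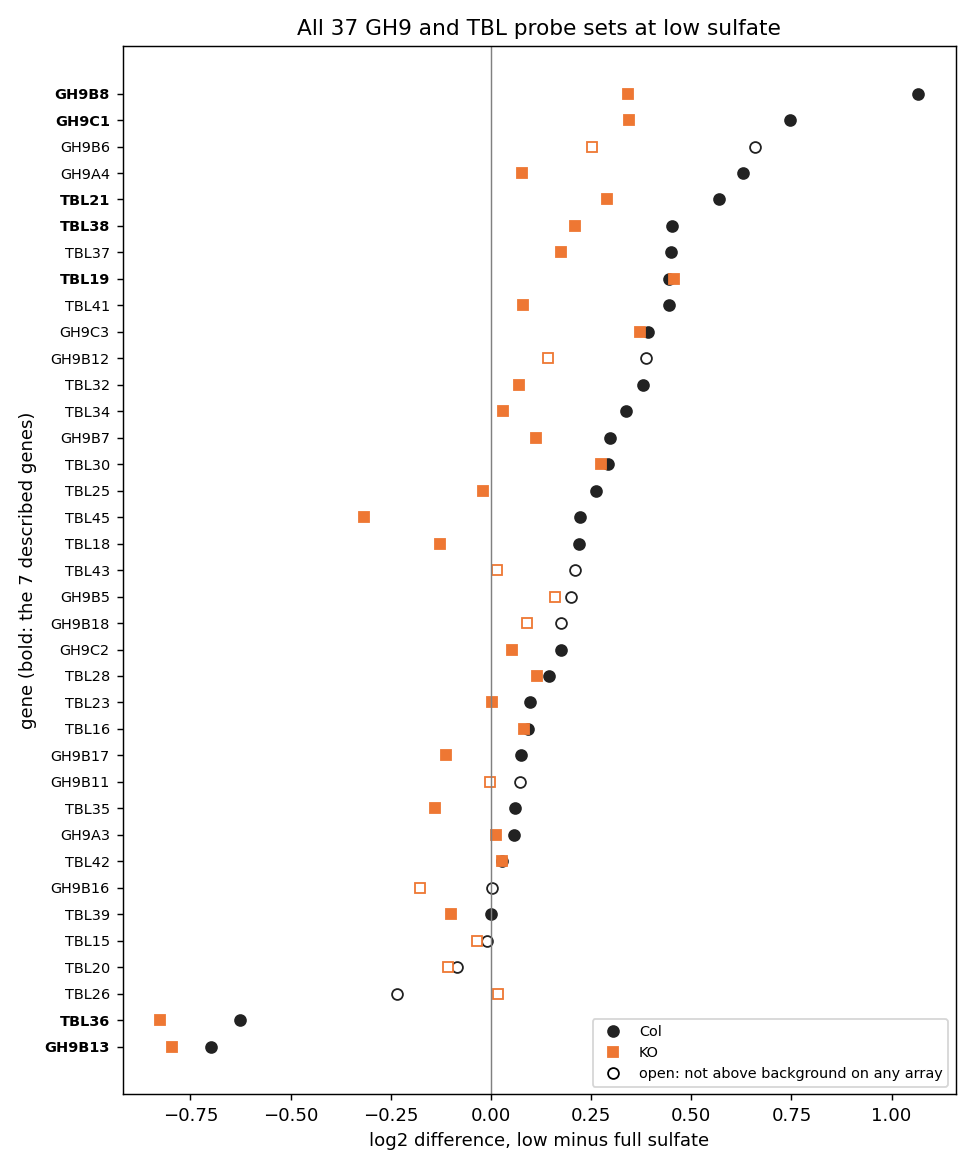
Log2 difference between low and full sulfate (x axis) in Col (circles) and KO (squares) for all 37 GH9 and TBL probe sets (y axis, ordered by the Col value, the 7 described genes in bold). Open symbols mark the 10 genes not above background on any array. Only GH9B13 and TBL36 lie below -0.5, and they do so in both genotypes.

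The measured genes of other wall pathways were read from the same fit. A gene counts as measured here where a tested probe set is annotated to it alone, and 8794 of the 22810 probe sets have no gene listed in the annotation used. Of 18 listed cellulose synthesis genes 3 were measured, and 2 rose in Col at low sulfate, AT5G42860 by 0.79 ± 0.12 (limma adjusted p = 0.0038) and AT1G45688 by 0.54 ± 0.09 (limma adjusted p = 0.0070). COB, which orients cellulose deposition, stood at 0.41 ± 0.11. Of 14 listed xyloglucan genes 5 were measured, all of the CSLC family, whose enzymes build the glucan backbone. In Col, CSLC4 rose by 0.70 ± 0.14, CSLC6 by 0.55 ± 0.11 and CSLC12 by 0.50 ± 0.12 (limma adjusted p = 0.015, 0.017 and 0.030), while CSLC5 stood at 0.39 ± 0.12 and CSLC8 at 0.13 ± 0.12. Of 14 listed xylan genes 4 were measured. IRX15L, a xylan synthesis gene, rose by 0.58 ± 0.12 (limma adjusted p = 0.015), and IRX10, IRX10L and IRX15 stood between -0.06 and 0.11.

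None of these 12 genes was called in KO at low sulfate, in any comparison of KO or OX with another group at the same sulfate level, or for the difference between the KO and Col responses. That difference was -0.64 ± 0.20 for CSLC4 (limma adjusted p = 0.29), -0.45 ± 0.13 for AT1G45688 (limma adjusted p = 0.25) and -0.49 ± 0.17 for AT5G42860 (limma adjusted p = 0.35). The CSLC4 mean in KO +S was already 0.44 ± 0.14 above that in Col +S. Their list medians in KO at low sulfate were 0.19 for cellulose, 0.28 for xyloglucan and 0.06 for xylan, against 0.54, 0.50 and 0.10 in Col. Besides the TBL genes, 2 of 7 listed genes of wall acetylation were measured and neither was called in Col or KO. These were AT5G06700 (TRICHOME BIREFRINGENCE), which stood at 0.19 ± 0.09 in Col and 0.25 ± 0.09 in KO, and AT3G03210, at 0.06 ± 0.10 and 0.15 ± 0.10. No listed pectin gene had such a probe set.

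Markers of cell types moved beside these genes. Of 22 listed root hair markers 3 were measured. EXPA7 and EXPA18, expansins of root hairs, rose in Col by 0.76 ± 0.14 and 0.77 ± 0.15 (limma adjusted p = 0.011 and 0.015) and stood at 0.19 ± 0.14 and 0.41 ± 0.15 in KO, with differences between the responses of -0.57 ± 0.20 and -0.36 ± 0.22 that were not called (limma adjusted p = 0.37 and 0.65), while the root hair gene SCN1 stood at 0.0052 and -0.02. The summed level of the 3 ran from 5.22 to 5.34 in Col +S, 5.65 to 5.74 in Col -S, 5.20 to 5.21 in KO +S, 5.30 to 5.40 in KO -S and 5.27 to 5.46 in OX. The sum was taken on unlogged values, so SCN1, which read highest of the 3 on every array, weighed most in it. For leaf-type photosynthesis genes, 3 of 5 were measured and all fell in Col, with a summed level of 4.13 to 4.29 at +S and 3.41 to 3.50 at -S. In KO it was 3.89 to 3.91 at +S and 3.25 to 3.27 at -S, and in OX 3.84 to 4.04. No measured gene of these lists was under the background on every array. The 1 measured endodermis marker and the 2 measured markers of dividing cells were not called, and no xylem or root cap marker had a probe set annotated to it alone. The part of these cell types in the GH9 and TBL values was not tested.

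**Figure D4:**
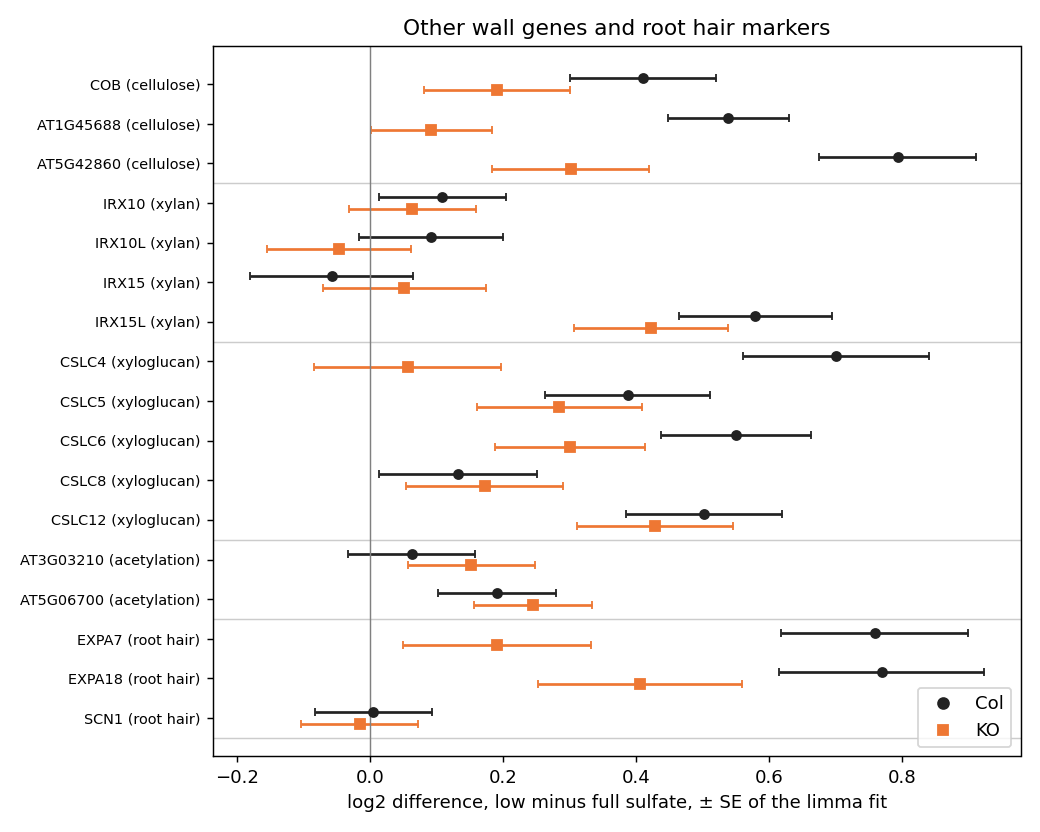
Log2 difference between low and full sulfate (x axis) ± SE of the limma fit in Col (circles) and KO (squares) for the measured genes of 4 wall pathways and for root hair markers (y axis). All genes but IRX15, CSLC8, AT5G06700 and AT3G03210 have points further right in Col than in KO. The difference between the responses of the genotypes was not called for any gene shown.

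The members that were higher at low sulfate had similar profiles over the 10 arrays, with Pearson r from 0.70 to 0.94 between any pair of GH9B8, GH9C1, TBL19, TBL21 and TBL38. GH9B13 and TBL36 correlated at 0.92 with each other and at -0.30 to -0.67 with the other 5. All these points share the 5 groups and the choice of the members, so the values are descriptions.

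The 3 genes most like each member were found by Pearson r over the 10 arrays among the 8309 probe sets that had a single matched gene and lay above the background on at least 2 arrays. Other probe sets were not ranked. For GH9B8 these were AT3G15480, AT1G29020 and AT1G45688 (0.97, 0.97 and 0.96), the last also on the cellulose list. For GH9C1 they were AT5G53420, AT2G45750 and USP, a UDP-sugar pyrophosphorylase (0.98, 0.96 and 0.96), and for GH9B13 AT5G60680, AT1G32460 and AT1G69160 (0.98, 0.97 and 0.96). For TBL38 they were AT1G67360, the isoprenylcysteine methylesterase PCME and AT5G66420 (each 0.98). For TBL21 they were AT1G68410, AT2G26780 and AT1G05210 (0.97, 0.96 and 0.95). For TBL19 they were AT4G05160, the acyl-ACP thioesterase FaTA and AT5G11930 (0.98, 0.97 and 0.97), and for TBL36 AT1G05700, AT3G03920 and AT1G03620 (0.95, 0.94 and 0.94).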

How the data were processed

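Root RNA was hybridised to 10 ATH1 arrays, assigned to 5 groups of 2 by title. The authors deposited log10 expression values, 1 per probe set and array. Background correction, summarization and normalization are not given in the sources used here. The log base rests on spiked controls at nominal 1.5 to 100 pM, which spanned 2.13 units, against 1.82 expected in log10 and 6.06 in log2. Their slope was 1.13 to 1.20, so folds of bright probe sets may be overstated. Values were multiplied by 3.32, the log2 of 10, without a pseudocount.

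Of 22810 probe sets, 554 without values and 64 controls (5 in both) were left out. The platform annotation gave a single gene for 13513 and several for 503. RefSeq (TAIR10.1) matched 13436 of the 13513 by Entrez ID. Probe sets shared by several genes, such as those of GH9B9 with GH9B10, were not used. Background was the 95th percentile of 22 Bacillus controls on each array. No fold is given for TBL19 in KO, where arrays at both sulfate levels lay under this background.

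Group means were fitted with limma 3.58.1 in R 4.3.3 over all arrays (lmFit, eBayes, residual df 5), with Benjamini-Hochberg adjustment over 22197 probe sets for each of 7 contrasts. The fit was tested on simulated data. In KO, a number names a plant line and so pairs arrays across sulfate levels; array deviations from group means correlated at 0.07 within lines. Col numbers carry no such meaning in the labels, and there the correlation was -0.14. Alternatives were quantile normalization, median centring, leaving out probe sets not above background on at least 2 arrays, a replicate block, fitting only the arrays compared, robust variances with an intensity trend, and leaving out each array. Named were the 7 members, other GH9 and TBL genes called or nearest the threshold, called list genes, and the 3 most similar genes per member. GH9A4, GH9C2 and TBL45 and uncalled list genes were named after their values were seen. The members and lists were chosen with earlier results of these data known.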

Additional observations from a re-analysis of the deposited data

How the results depend on the processing

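The count of 8 GH9 and TBL genes called among 37 in Col was 4 with only the arrays compared, 5 with the replicate block, and 2 to 9 when 1 array was left out. In KO at low sulfate the count of 3 was 1 to 3 when 1 array was left out. The count of 1 for KO against Col at -S was 3 without probe sets under the background, 2 with an intensity trend, 0 with only the arrays compared, 0 with the replicate block, and 0 to 1 when 1 array was left out. The count of 0 for OX against Col was 2 without probe sets under the background and 2 with an intensity trend. The replicate block ended the calls of TBL19 in KO and of GH9B8 for KO against Col at -S and no other member's call in the comparisons tested. With only the arrays compared both were lost too (adjusted p = 0.079 and 0.15).

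Differences close to 0 changed sign when 1 array was left out. The ranges were -0.43 to 0.0070 for TBL21 in KO against Col at -S. For KO against Col at +S they were -0.20 to 0.0045 for GH9B8, -0.041 to 0.074 for GH9C1, -0.10 to 0.00022 for TBL36 and -0.11 to 0.0072 for TBL38. For OX against Col they were -0.20 to 0.0027 for TBL19 and -0.087 to 0.039 for TBL21, and for OX against KO -0.33 to 0.022 for GH9B8, -0.00084 to 0.20 for TBL19 and -0.061 to 0.011 for TBL38. TBL38 in OX against KO was 0.0064 after quantile normalization. No called value of a member changed sign under the alternatives run. The causes were not tested. TBL19 is limited by its closeness to the background.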

Other observations

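Of the 37 probe sets, 34 had a lower mean in KO -S than in Col -S, with a median of -0.25. This count leaned in part on the second Col -S array, whose background was 0.37, against -0.28 on the first. Set against the first alone, the KO -S means of GH9A3, GH9A4, GH9B11, GH9B16, TBL20, TBL21 and TBL42 became higher. That of TBL28 became lower. The 10 genes under the background on every array, whose differences are not measured expression, supplied 9 of the 34. Of the 27 others, 25 were lower, with a median of -0.29. The 20 of these that are not among the 7 members had a median of -0.28, and 18 of them were lower. Over all tested probe sets the median was -0.04, and 42.5% were higher in KO. The measured wall lists stood at medians of -0.28 for cellulose synthesis, -0.20 for xyloglucan and -0.13 for xylan. At full sulfate the GH9 and TBL median between the same genotypes was -0.05, against -0.02 over all probe sets. There 28 of the 37 had a lower mean in KO, and 43.5% of all tested probe sets were higher in KO. TBL45 had the lowest value outside the members at low sulfate, -0.46 ± 0.12 (limma adjusted p = 0.089), and was called where probe sets under the background were left out. That fit called 1025 of 15079 probe sets.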
